A study of Mus musculus with 72 samples.

Results

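The 7 noncoding RNAs described here are Rn7sk, Rpph1, Rmrp, Terc, Neat1, Malat1 and Mir17hg, of 38951 gene names in the 4 count tables of the study. They were chosen by name, and also on their measured input level, polysomal share and change by treatment in these tables, as a gauge of what the fractions hold. Their levels and changes are therefore given as a description, without a p-value for a single member. The study used mouse Eµ-Myc B-cell lymphoma, in which a Myc transgene under the immunoglobulin heavy chain enhancer drives the tumour in B cells. CX-5461 inhibits transcription by RNA polymerase I, and everolimus inhibits the mTORC1 kinase.

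In the acute experiment, lymphoma clone 4242, which carries a retroviral Gfp marker, grew in C57BL/6 mice. On day 10 after transplant 6 mice per group received vehicle, 35 mg/kg of CX-5461, 5 mg/kg of everolimus, or the combination at these doses, and lymph nodes were taken 2 h after the dose. In the relapse experiment, cell lines were cultured for 2 to 3 passages from lymph nodes of mice carrying clone 107 of the same lymphoma. These mice had reached their endpoint under vehicle (called naive here), CX-5461, everolimus or both drugs, with 3 lines per group. Each experiment thus rests on 1 lymphoma clone. Every mouse or line gave a library of cytoplasmic RNA, called input, and one of polysomal RNA pooled from gradient fractions with 4 or more ribosomes, 72 libraries in all.

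Rn7sk (7SK) is a nuclear RNA that holds the elongation kinase P-TEFb inactive. Rpph1 is the catalytic RNA of RNase P, which trims the leader of tRNA precursors, and Rmrp is the related RNA of RNase MRP, which cleaves ribosomal RNA precursors in the nucleolus. These RNAs are made by RNA polymerase III, whereas Terc, the template RNA of telomerase, is made by RNA polymerase II. Neat1 builds paraspeckles and Malat1 collects in nuclear speckles, so both are kept in the nucleus. Mir17hg is the primary transcript of the miR-17-92 microRNA cluster, a known target of Myc, and is cut by Drosha in the nucleus. None of these RNAs is translated.

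The first 100 bases of each of the 4 short RNAs are shown, because their full transcripts carry the counts and differ in length and composition. They were read on the transcript strand from the GENCODE transcripts of GRCm38. Capitals mark GATC in Rn7sk, the letters of its known Hexim-binding repeats, and CTAACCCT in Terc, its telomere template; the other sequences have no marked part.
Rn7sk: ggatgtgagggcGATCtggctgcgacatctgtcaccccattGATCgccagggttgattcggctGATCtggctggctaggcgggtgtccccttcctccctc
Rpph1: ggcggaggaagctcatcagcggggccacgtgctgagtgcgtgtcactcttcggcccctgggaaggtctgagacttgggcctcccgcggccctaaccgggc
Rmrp: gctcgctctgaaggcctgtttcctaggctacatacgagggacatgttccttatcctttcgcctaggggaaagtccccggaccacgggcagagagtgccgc
Terc: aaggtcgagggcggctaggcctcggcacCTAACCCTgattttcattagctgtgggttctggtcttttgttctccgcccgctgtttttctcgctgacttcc
GATC occurred 3 times in the Rn7sk transcript of 331 bases, first at base 13 and each time within these 100 bases. The same letters occur in 11369 of 16517 GENCODE transcripts of 250 to 450 bases (68.8%), so the match is a description. The template occurred 1 time in Terc, from base 29. The GC content of the transcripts was 58.0% in Rn7sk, 67.1% in Rpph1, 64.2% in Rmrp and 67.1% in Terc.

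Mir17hg carries 6 hairpins, for which RefSeq (GRCm38.p6) lists 11 mature microRNAs. The 6 mature arms that name the families of the cluster are shown, with the seed (bases 2 to 8) in capitals.
mmu-miR-17-5p: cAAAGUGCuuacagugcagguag
mmu-miR-20a-5p: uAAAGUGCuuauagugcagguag
mmu-miR-18a-5p: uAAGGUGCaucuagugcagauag
mmu-miR-19a-3p: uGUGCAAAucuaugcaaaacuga
mmu-miR-19b-3p: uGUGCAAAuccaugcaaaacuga
mmu-miR-92a-3p: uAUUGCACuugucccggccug
These 6 arms hold 4 seeds. miR-17 and miR-20a share one, miR-19a and miR-19b share another, and miR-18a and miR-92a each have their own. In the genome they run from chr14:115043684-115043706 (miR-17-5p) to chr14:115044476-115044496 (miR-92a-3p) on the plus strand. The counts below are of the host transcript, not of mature microRNAs.

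On GRCm38, Rn7sk is annotated at chr9:78175303-78175633 (minus strand, 331 bases of exon) and Terc at chr3:96414437-96414859 (minus strand, 423 bases), each overlapping no other gene. Rpph1 lies at chr14:50807449-50807767 (minus strand, 319 bases) within Ccnb1ip1 on the same strand. Rmrp has 2 models, at chr4:43492783-43493063 and chr4:43492788-43493058 (minus strand, 281 bases together), which overlap Ccdc107 on the opposite strand. Neat1 lies at chr19:5824708-5845478 (minus strand, 20771 bases) and Malat1 at chr19:5795690-5802672 (minus strand, 6983 bases), where it overlaps Gm37376 on the opposite strand. On their own strand Neat1 overlaps 3 annotated genes and Malat1 overlaps Gm27694. Mir17hg lies at chr14:115042879-115046727 (plus strand, 3536 bases) and holds 6 microRNA genes. Whether the counting used strand is not given in the sources used here. Whether reads that these RNAs share with overlapping genes were counted for them, for the partner, or left out as ambiguous is not known.

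Total counts on genes were 17079034 to 24702803 per acute input library, 11528341 to 20854565 per acute polysomal library, 14566897 to 26016328 per relapse input library and 15528791 to 30383886 per relapse polysomal library. All 8 B cell markers were detected in all 4 tables, with summed levels of at least 1283 CPM, the counts scaled to a common library size. The acute nodes also held RNA of other cells. Summed T cell markers were 70.4 to 93.8 CPM in vehicle input, 47.7 to 59.0 after CX-5461, 56.3 to 81.0 after everolimus and 47.1 to 72.6 after both drugs, and erythroid markers of acute input ranged from 1003 to 15683 CPM. In the relapse lines T cell markers summed to at most 14.3 CPM, with Trbc2 at 0 in every input library and Cd3e at 0 in every polysomal library. In 3 acute input libraries Gm26870 and Gm10800 took 15 to 23.3% of counts, and in 4 acute polysomal libraries Lars2 and Yam1 took 10.1 to 26.2%. In the relapse tables the alphabetical order of columns restarts, which splits the input libraries into runs of 7 and 5 and the polysomal libraries into runs of 5, 5 and 2. What a run stands for is not given in the sources used here. Their part in the results was not tested, beyond the fits without these libraries and with the run as a term.

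The short RNAs made up a large part of input RNA and a small part of polysomal RNA. Together Rn7sk, Rpph1, Rmrp and Terc took 2.42 to 4.4% of gene counts in acute input (median 3.34%) and 0.430 to 1.5% in acute polysomal libraries (median 0.623%). In the relapse lines the same 4 RNAs took 6.45 to 14.7% of input counts (median 11.8%) and 0.485 to 1.11% of polysomal counts (median 0.732%). Neat1, Malat1 and Mir17hg together took 0.0213 to 0.110% in acute input (median 0.0466%) and 0.0151 to 0.0524% in acute polysomal libraries (median 0.0238%). In relapse they took 0.0114 to 0.0273% of input (median 0.0137%) and 0.0152 to 0.0395% of polysomal counts (median 0.0201%). The fractions did not overlap for the summed share of the short RNAs in either experiment, and they overlapped for that of the long RNAs in both. Taken singly, Rmrp overlapped between fractions in both experiments, in relapse with 160 to 2420 CPM in input and 68.9 to 2429 CPM in polysomal RNA. Terc overlapped among the relapse lines, with 3.41 to 212 and 0.406 to 21.6 CPM. Acute nodes and cultured lines were different clones grown in different settings, so the experiments are set side by side without a test. In relapse input, Rn7sk alone reached 3.49 to 9.24% and Rpph1 2.68 to 7.78% of counts. The other genes that passed 5% of a relapse input library were the 7SL copies Gm22405 (Rn7s1) and Gm26191 (Rn7s2), the RNA of the signal recognition particle, and Gm22179, whose annotation was not found in the references used.

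Levels are given in CPM scaled by TMM factors fitted jointly over the input and polysomal libraries of an experiment. Over the 24 acute mice, input Rn7sk ranged from 12884 to 28097 with a median of 19177 CPM. Rpph1 ranged from 9013 to 26103 with a median of 14706 CPM, Rmrp from 1186 to 3859 with a median of 2134 CPM and Terc from 21.5 to 73.5 with a median of 46.9 CPM. Terc, the telomerase RNA, stood far below the other short RNAs in every mouse. Among the long RNAs, Malat1 ranged from 224 to 938 with a median of 454 CPM, Neat1 from 17.8 to 100.4 with a median of 39.4 CPM and Mir17hg from 11.6 to 31.3 with a median of 16.6 CPM.

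Per kb of exon, the median acute input level was 57937 CPM for Rn7sk, 46101 for Rpph1, 7596 for Rmrp, 111 for Terc, 65 for Malat1, 4.68 for Mir17hg and 1.90 for Neat1. Each member exceeded the next in at least 23 of 24 mice, except that Terc exceeded Malat1 in 20 of 24. In acute polysomal RNA the order changed. Rpph1 came first with 9427 CPM per kb and exceeded Rn7sk (6291) in 23 of 24 mice, and Malat1 (28.2) exceeded Terc (16.4) in 23 of 24. Rmrp held 3032, Mir17hg 2.25 and Neat1 0.742 CPM per kb. In the relapse lines, the neighbours Rn7sk (246324) and Rpph1 (205589 CPM per kb of input) could not be ordered, since each was higher in 6 of 12 lines.

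**Figure D1:**
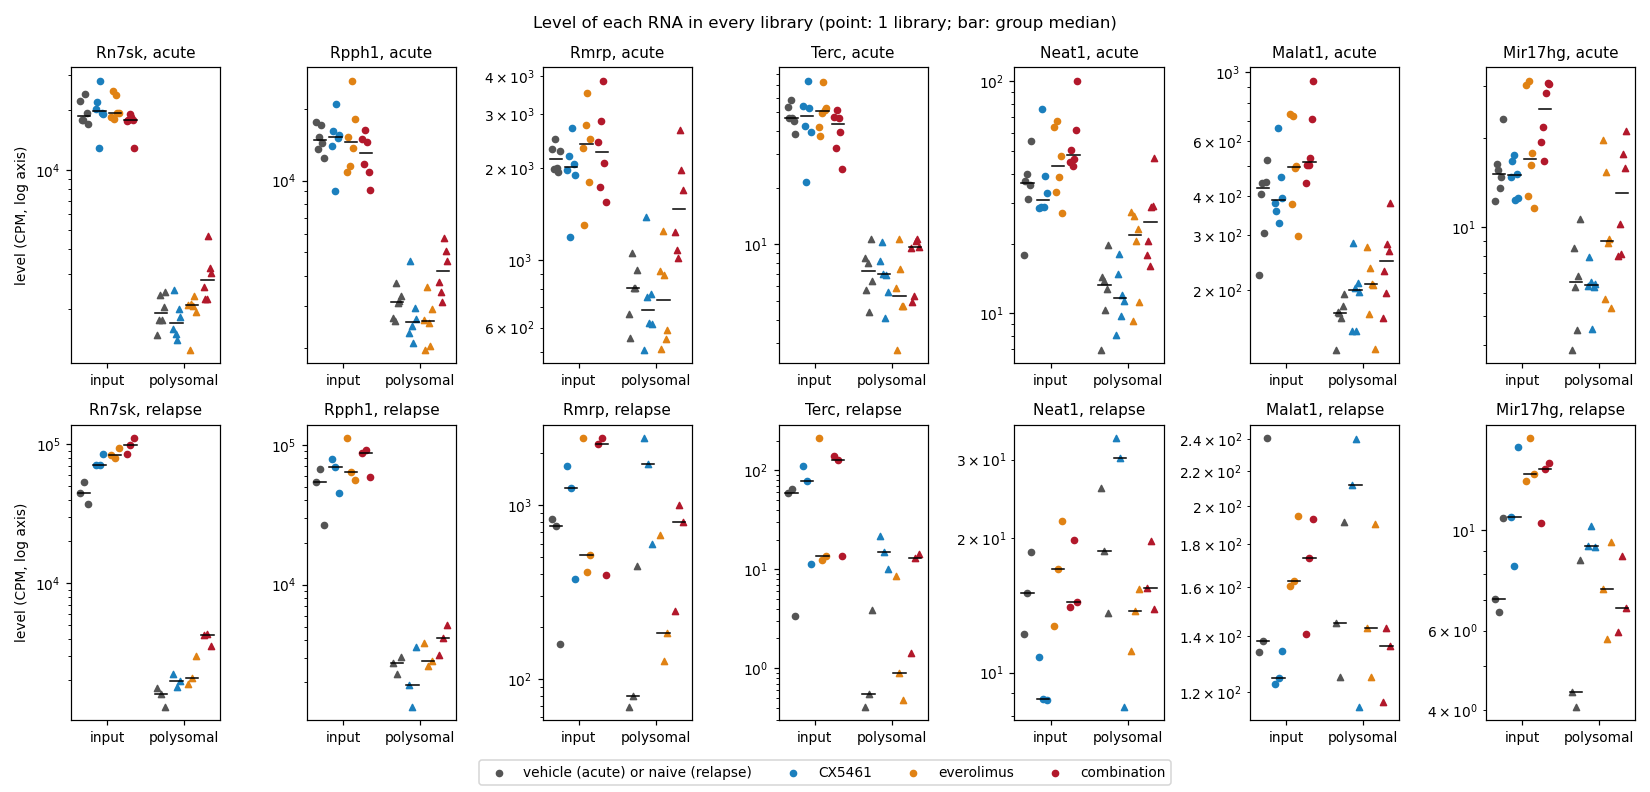
Level of each RNA (CPM, log axis) in every library, by fraction and treatment, with 1 point per library and a bar at each group median. Rn7sk and Rpph1 lie lower in polysomal than in input RNA of every mouse and line. Among the 12 relapse lines this holds for Rmrp in 7 and for Terc in 10. Rn7sk of relapse input rises from naive to combination lines, and Terc and Rmrp spread most among relapse lines.

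The change from input to polysomal RNA was measured in each mouse or line as the log2 polysomal less the log2 input level. Because each library was made from a fixed mass of RNA, this is a relative measure and not the share of molecules on polysomes. In acute vehicle mice (n = 6) it was −3.33 ± 0.45 (mean ± SD) for Rn7sk, or 9.91% of the input level. It ran from −3.91 to −2.80 over the mice. Only 0.116% of the 16421 genes measured were lower. Terc followed at −2.75 ± 0.44 (14.9%), then Rpph1 at −2.29 ± 0.30 (20.5%). Rmrp, the most retained of the short RNAs, was at −1.46 ± 0.28 (36.4%). The nuclear long RNAs lay at or above the level of Rmrp, Neat1 at −1.46 ± 0.09, Mir17hg at −1.28 ± 0.28 and Malat1 at −1.18 ± 0.26, so that 44.0% of the input level of Malat1 was seen in polysomal RNA. The median of all genes was −0.06 and the central 95% ran from −1.65 to 0.74. Rn7sk, Terc and Rpph1 lay below that range, and the other members lay inside it. All 24 mice were below 0 for every member but Rmrp, which reached 0.13.

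In naive relapse lines (n = 3) Rn7sk was at −4.87 ± 0.21, 3.43% of input, and Rpph1 at −4.10 ± 0.89, 5.84%. Of 15637 genes, 0.0576% were lower than Rn7sk. Over all 12 lines Rn7sk lay between −5.48 and −4.32, so every line held far less of it in polysomal than in input RNA. Terc was at −4.46 ± 4.03 and Rmrp at −1.79 ± 2.84, with an SD near the size of the mean for Terc and above it for Rmrp. The lines ran from −6.90 to 0.19 for Terc and from −3.59 to 1.48 for Rmrp, so both signs occurred. The long RNAs lay near the median of all genes: Neat1 was at 0.31 ± 0.77, Malat1 at −0.12 ± 0.22 and Mir17hg at −0.56 ± 0.22, against a median of −0.02 and a central 95% from −1.99 to 1.57 over all genes. Without line 33 the mean of Neat1 was −0.07. With plain library totals Malat1 was at 0.36, so the sign of both depends on these choices.

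Other untranslated RNAs gave a scale for these values. The 7SL copy Gm22405, part of a particle that binds translating ribosomes, was at −2.66 ± 0.39 in acute vehicle mice and −4.74 ± 0.87 in naive lines. The Y RNA Rny1, which binds the Ro protein, was at −2.50 and −4.75. Kcnq1ot1, a nuclear antisense RNA of an imprinted locus, was at −1.56 and −0.91. These were among the lower ones. Rnu1a1 was at −0.39 and 0.55, Rnu12 at 0.02 and −0.70, and Scarna2 at 0.32 and −2.24. Of 9 other nuclear long RNAs 8 were below 0 in acute vehicle mice and 6 in naive lines, with Tug1 highest at 0.87 and 0.60. Of 20 other polymerase III and U-class small RNAs measured in acute mice, 15 were below 0 with a median of −0.83, and of 54 small nucleolar RNAs 44 were below 0 with a median of −1.10. In naive lines 14 of 19 small RNAs (median −1.70) and 42 of 43 small nucleolar RNAs (median −1.43) were below 0. The 7 lists of proteins that bind or make these RNAs had medians between 0.03 and 0.35 in acute vehicle mice and between 0.19 and 0.90 in naive lines. The small RNAs as a group thus lay lower in polysomal RNA than these mRNAs, as a description of the libraries.

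**Figure D2:**
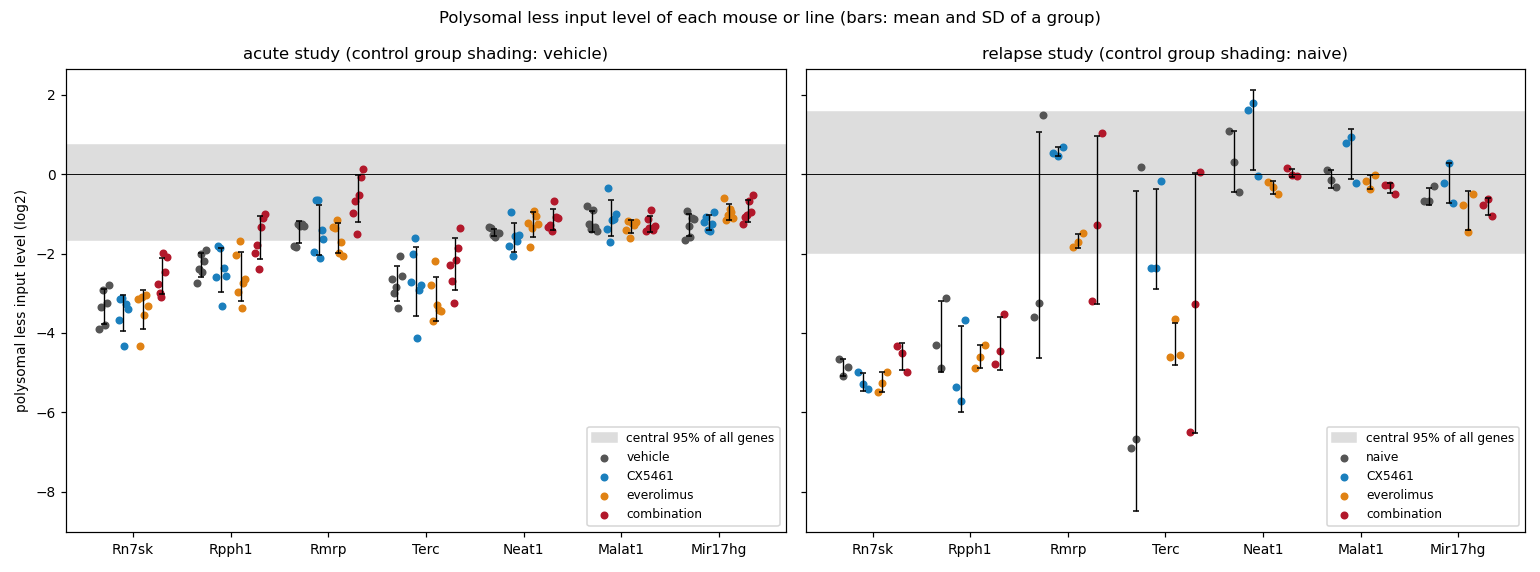
Polysomal less input level (log2) of each RNA in every acute mouse (left) and relapse line (right), with bars for the mean and SD of each group and grey shading for the central 95% of all genes in the control group. Rn7sk lies below the shading in both experiments, and Terc and Rmrp spread widely among the relapse lines.

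Exposure for 2 h to CX-5461 or everolimus alone moved no member past the threshold in acute input or polysomal RNA. Changes are log2 differences from vehicle ± SE from edgeR's quasi-likelihood test on the counts, and a gene was called at a Benjamini-Hochberg adjusted p under 0.05 over all genes tested. In input RNA, 0 of 7 members were called for CX-5461 (all genes 0.399%) and for everolimus (all genes 0.106%). In polysomal RNA, 0 of 7 were called for CX-5461 (all genes 0.878%) and for everolimus (all genes 0.15%). At an unadjusted p under 0.05 there were 0 and 0 members in input (all genes 9.72% and 14.4%), and 0 and 1 in polysomal RNA (all genes 16.1% and 10.9%). DESeq2 called 0 members in each of these 4 comparisons. The largest estimate among them was that of Mir17hg in polysomal RNA after everolimus, 0.66 ± 0.31. Member changes in input lay between −0.11 and 0.14 for CX-5461 and between 0.09 and 0.43 for everolimus. In bulk nodes, fewer cells of a type and less RNA per cell cannot be told apart.

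Under both drugs together 4 members rose in polysomal RNA. All 7 estimates were above 0, with a median of 0.60 against 0.00 over all genes tested, and 4 of 7 members passed the threshold, where 7.42% of all genes did. Rmrp, the RNase MRP RNA, held lowest 553, median 809.6, highest 1052 CPM in vehicle polysomes and lowest 1011, median 1467, highest 2665 CPM after both drugs, a change of 1.00 ± 0.26. In 5 of 6 mice it exceeded every vehicle mouse. Rn7sk went from lowest 1484, median 1899.8, highest 2445 CPM to lowest 2247, median 2806, highest 4652 CPM, a change of 0.60 ± 0.18, with 4 of 6 mice above every vehicle mouse. Neat1, the paraspeckle scaffold, went from lowest 6.96, median 13.3, highest 19.7 CPM to lowest 16, median 24.7, highest 47.0 CPM, a change of 1.03 ± 0.29. Mir17hg went from lowest 3.84, median 6.54, highest 10.6 CPM to lowest 8.01, median 13.1, highest 21.2 CPM, a change of 1.01 ± 0.31. No member had fully separate groups. The calls held in 7 of 10 fits for Rn7sk, 9 of 10 for Rmrp, 9 of 10 for Neat1 and 9 of 10 for Mir17hg, the reported fit included. The estimates that missed the threshold were 0.60 ± 0.19 for Malat1, 0.47 ± 0.18 for Rpph1 and 0.21 ± 0.27 for Terc. With the replicate number as a block 1 member passed, and 2 members did with the Lars2- and Yam1-rich polysomal libraries left out.

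Input RNA of the same mice showed a split between short and long members. After both drugs the estimates were 0.68 ± 0.28 for Neat1, 0.64 ± 0.24 for Malat1 and 0.63 ± 0.22 for Mir17hg, against −0.18 ± 0.14 for Rn7sk, −0.21 ± 0.19 for Rpph1, −0.24 ± 0.20 for Terc and 0.17 ± 0.21 for Rmrp. Malat1 held lowest 224, median 424, highest 524 CPM in vehicle mice and lowest 441, median 517, highest 938 CPM after both drugs, and 3 of 6 mice exceeded every vehicle mouse. Rn7sk held lowest 17016, median 18622, highest 24244 CPM and lowest 12884, median 17835, highest 19192 CPM, and no combination mouse exceeded the highest vehicle mouse. By edgeR 0 of 7 members passed the threshold here, where 7.48% of all genes did. At an unadjusted p under 0.05 there were 3 members (all genes 29.8%), and DESeq2 called 1. Without vehicle mouse 6 and combination mouse 3, 3 members passed. T cell markers in these input libraries summed to 47.1 to 72.6 CPM after both drugs against 70.4 to 93.8 CPM in vehicle mice, and their part in the estimates was not tested.

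The polysomal less input difference was higher, by estimate, for the short RNAs under both drugs. It went from −1.46 ± 0.28 to −0.61 ± 0.60 (mean ± SD, n = 6) for Rmrp, a change of 0.85 ± 0.25, with 5 of 6 mice above every vehicle mouse. For Rn7sk it went from −3.33 ± 0.45 to −2.57 ± 0.46, a change of 0.76 ± 0.24, and for Rpph1 from −2.29 ± 0.30 to −1.60 ± 0.55, a change of 0.68 ± 0.26, each with 4 of 6 mice above every vehicle mouse. The estimate was 0.47 ± 0.32 for Terc, 0.37 ± 0.13 for Mir17hg, 0.32 ± 0.15 for Neat1 and −0.08 ± 0.15 for Malat1. The median over the 4 short RNAs was 0.72, against 0.03 over all genes. These are estimates that did not pass the test: of 16421 genes, 0% were called for the combination, 0% for CX-5461 and 0% for everolimus, and 0 of 7 members in each. At an unadjusted p under 0.05 by edgeR there were 5 members for the combination (all genes 13.1%), 0 for CX-5461 (all genes 4.85%) and 1 for everolimus (all genes 6.54%). With no count filter 4 members passed for the combination.

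Rn7sk was higher in every drug-relapse line than in every naive line, in both fractions. Its input level was 44319.7, 53827 and 37117 CPM in naive lines 33, 38 and 6, and 70489, 70322 and 84897 CPM in CX-5461 lines 14, 39 and 20. It was 84060.1, 79006 and 94691 CPM in everolimus lines 12, 26 and 4, and 85248, 98548 and 110911 CPM in combination lines 8, 9 and 31. The 9 relapse lines did not overlap the 3 naive lines, a pattern that 6.31% of all genes showed. The changes from naive were 0.72 ± 0.20 for CX-5461, 0.94 ± 0.20 for everolimus and 1.12 ± 0.20 for the combination, and all 3 passed the threshold. Its polysomal level was 1749, 1589 and 1286 CPM in naive lines 33, 38 and 6, and 2227, 1793 and 1985 CPM in CX-5461 lines 14, 39 and 20. It was 1886, 2068 and 3013 CPM in everolimus lines 12, 26 and 4, and 4262, 4321 and 3506 CPM in combination lines 8, 9 and 31. Again all 9 relapse lines lay above the naive lines, as 3.01% of all genes did. The combination lines stood highest, with 1.41 ± 0.22, which passed the threshold, against 0.41 ± 0.22 and 0.62 ± 0.22, which did not. For the difference between fractions the estimates were −0.36 ± 0.29, −0.33 ± 0.29 and 0.28 ± 0.29. All 6 changes in level kept their sign in every fit run. The input calls held in 7 of 19 fits for CX-5461, 14 of 19 for everolimus and 19 of 19 for the combination, and the polysomal call for the combination in 20 of 20. Those fits leave out 1 line or change the scaling, the filter or the tool, and the call for CX-5461 was lost without any 1 of 9 lines, among them CX-5461 line 14, 20 or 39 and naive line 33 or 6.

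Levels of the other short RNAs moved with the run of columns. Input Terc was 59.5, 65.3 and 3.41 CPM in naive lines 33, 38 and 6, and 111, 77.3 and 11.4 CPM in CX-5461 lines 14, 39 and 20. It was 212, 12.4 and 13.6 CPM in everolimus lines 12, 26 and 4, and 139, 128 and 13.7 CPM in combination lines 8, 9 and 31. The 7 libraries of the first run held 59.5 to 212 CPM and the 5 of the second run 3.41 to 13.7 CPM, without overlap. Polysomal Terc was 0.406, 0.546 and 3.90 CPM in naive lines 33, 38 and 6, and 21.6, 15 and 10.00 CPM in CX-5461 lines 14, 39 and 20. It was 8.63, 0.895 and 0.482 CPM in everolimus lines 12, 26 and 4, and 1.44, 13.1 and 14.2 CPM in combination lines 8, 9 and 31. The first polysomal run held 3.90 to 14.2, the second 0.406 to 1.44 and the third, of CX-5461 lines 14 and 39 alone, 15 to 21.6 CPM.

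Input Rmrp was 832, 760.5 and 159.7 CPM in naive lines 33, 38 and 6, and 1671, 1256 and 374 CPM in CX-5461 lines 14, 39 and 20. It was 2419.6, 413 and 516 CPM in everolimus lines 12, 26 and 4, and 2252, 2418 and 394 CPM in combination lines 8, 9 and 31. This gave 761 to 2420 CPM in the first input run and 160 to 516 CPM in the second. Polysomal Rmrp was 68.9, 79.5 and 447 CPM in naive lines 33, 38 and 6, and 2429, 1731 and 600.0 CPM in CX-5461 lines 14, 39 and 20. It was 674, 126 and 183 CPM in everolimus lines 12, 26 and 4, and 246, 997 and 802 CPM in combination lines 8, 9 and 31. The polysomal runs held 447 to 997, 68.9 to 246 and 1731 to 2429 CPM, again without overlap.

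Input Rpph1 was 53777, 67324 and 26559 CPM in naive lines 33, 38 and 6, and 78575, 69584 and 45091 CPM in CX-5461 lines 14, 39 and 20. It was 111927, 63842 and 56459.5 CPM in everolimus lines 12, 26 and 4, and 86683, 92561 and 58831 CPM in combination lines 8, 9 and 31. These levels overlapped between the runs, at 53777 to 111927 and 26559 to 63842 CPM. Polysomal Rpph1 was 2736, 2291 and 3049.7 CPM in naive lines 33, 38 and 6, and 1915, 1330.1 and 3549.8 CPM in CX-5461 lines 14, 39 and 20. It was 3812, 2611 and 2861 CPM in everolimus lines 12, 26 and 4, and 3123, 4179.7 and 5149.7 CPM in combination lines 8, 9 and 31. The third run, with 1330 to 1915 CPM, lay below the others at 3050 to 5150 and 2291 to 3123 CPM. Runs and treatments are only partly crossed, and what differed between runs was not tested.

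The lines are split into runs differently in the polysomal table and in the input table, so the polysomal less input difference is described by both runs of a line. Each pair of runs held 2 or 3 lines, and the part of the runs in these differences was not tested. Terc lay at −6.90 to −6.51 in the 3 lines of first input and second polysomal run, which are naive 33, naive 38 and combination 8. It lay at −0.18 to 0.19 in the 3 lines of second input and first polysomal run, naive 6, CX-5461 20 and combination 31. Lines of the same run number in both tables lay between, at −4.61 to −3.28 (combination 9 and everolimus 12) and −4.57 to −3.66 (everolimus 26 and 4). Rmrp showed the same order, with −3.59 to −3.19, 0.68 to 1.48, −1.84 to −1.28 and −1.71 to −1.49. CX-5461 lines 14 and 39, which form the third polysomal run, lay at −2.36 to −2.35 for Terc and 0.46 to 0.54 for Rmrp. Naive lines thus sat at both ends of the range for both RNAs. Rpph1 also stepped, at −3.67 to −3.12 in the lines of second input and first polysomal run. It lay at −5.71 to −5.36 in CX-5461 lines 14 and 39 and between −4.88 and −4.30 in all others. The differences of Rn7sk, −5.48 to −4.32 over all lines, showed no such steps.

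**Figure D3:**
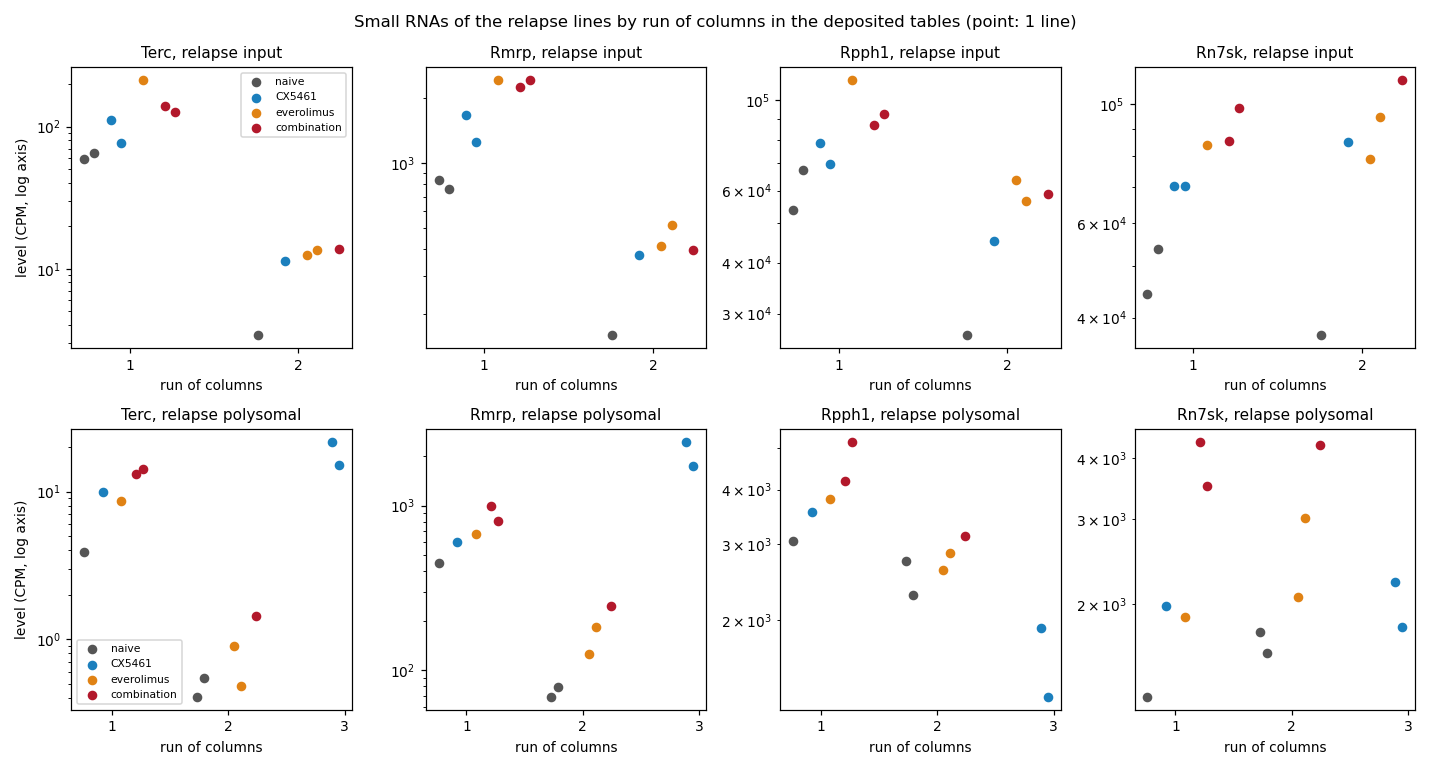
Levels (CPM, log axis) of Terc, Rmrp, Rpph1 and Rn7sk in each relapse line by run of columns, for input (top) and polysomal libraries (bottom), coloured by treatment with 1 point per line. Terc and Rmrp separate by run in both fractions, while Rn7sk overlaps between runs.

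Within a run, relapse lines were compared with the naive lines of that run. In the first input run all 5 relapse lines exceeded naive lines 33 and 38 for Rn7sk, Rpph1, Rmrp, Terc and Mir17hg (all genes 16.5%), and in the second run all 4 exceeded naive line 6 for the same 5 RNAs (all genes 28.5%). In the first polysomal run this held for Rn7sk, Rpph1, Rmrp and Terc (all genes 22.7%). In the second it held for Rn7sk, Rmrp and Mir17hg (all genes 15.7%). The third polysomal run holds no naive line, so it gives no such value. Rn7sk and Rmrp were thus the members above naive in every run that has naive lines. All relapse lines lay below naive for Malat1 in the second input run and the first polysomal run, and for Neat1 in the second polysomal run. The shares of all genes above naive in every such run, or below naive within a run, were not computed.

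Without a term for the run, the members past the threshold in input were Rn7sk for CX-5461 (1 of 7; all genes 8.37%), Rn7sk and Mir17hg for everolimus (2 of 7; all genes 11.7%) and Rn7sk for the combination (1 of 7; all genes 13.5%). With the run as a term, a fit chosen after seeing the data, 3 members passed for CX-5461 (all genes 16.2%), 5 for everolimus (all genes 30.4%) and 5 for the combination (all genes 25.3%). For the combination the estimates were then 1.47 ± 0.15 for Rmrp, 1.31 ± 0.22 for Terc, 1.11 ± 0.18 for Rn7sk, 0.75 ± 0.17 for Rpph1 and 0.68 ± 0.17 for Mir17hg. Without the term Rmrp was at 1.53 ± 0.86 and Terc at 1.12 ± 1.24. For everolimus the term moved Rmrp from 0.93 ± 0.85 to 1.58 ± 0.16, Terc from 0.88 ± 1.24 to 1.65 ± 0.23 and Rpph1 from 0.65 ± 0.38 to 0.97 ± 0.17, so estimates as well as errors changed. The change of Rn7sk was 0.94 ± 0.20 and 0.92 ± 0.19 for everolimus without and with the term.

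In polysomal RNA, Rmrp passed the threshold for CX-5461 with 3.08 ± 0.95 (1 of 7; all genes 19.5%), and all 3 CX-5461 lines lay above the naive lines for Rmrp, Terc, Rn7sk and Mir17hg (all genes 16.5%). CX-5461 lines 14 and 39 form the third run, and without them 0 members passed. The call of Rmrp held in 9 of 20 fits. The fit without lines 14 and 39 and the fit with the run as a term both rest on CX-5461 line 20 alone. Calls and errors from these fits therefore do not measure the spread between CX-5461 lines, and no conclusion is drawn from them. With the run as a term Rmrp was at 0.66 ± 0.27 and did not pass, and 1 member, Terc at 1.23 ± 0.31, did (all genes 5.39%). For everolimus 0 of 7 passed by edgeR (all genes 0.115%), 1 at an unadjusted p under 0.05 (all genes 8.54%) and 0 by DESeq2, and 2 passed with the run as a term (all genes 3.64%). For the combination Rn7sk passed (1 of 7; all genes 10%), and with the term 4 did (all genes 26.6%): 1.76 ± 0.25 for Terc, 1.54 ± 0.17 for Rn7sk, 1.42 ± 0.19 for Rmrp and 0.50 ± 0.16 for Rpph1. All 3 combination lines also lay above the naive lines for Rpph1, as 16.7% of all genes did.

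For the relapse difference between fractions, 0 of 7 members were called for any drug by edgeR (all genes 0% for CX-5461, 0% for everolimus and 0% for the combination). At an unadjusted p under 0.05 there were 1, 0 and 0 members (all genes 20.8%, 10.5% and 3.7%). With the runs as terms, 0 passed for the combination (all genes 0.927%). For everolimus 3 did (all genes 18%), −1.04 ± 0.25 for Terc, −0.77 ± 0.17 for Rpph1 and −0.67 ± 0.15 for Rmrp. Without the terms Terc and Rmrp had the opposite sign, at 0.30 ± 2.14 and 0.47 ± 1.32, and Rpph1 was at −0.45 ± 0.60. For CX-5461 these terms leave line 20 alone behind the estimate, since lines 14 and 39 form a run of their own. The sign turned as well, from 2.99 ± 2.06 to −0.21 for Terc and from 2.68 ± 1.36 to −0.60 for Rmrp.

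The long RNAs of the relapse lines varied less than Terc and Rmrp. Input Mir17hg was 7.05, 6.6 and 10.6 CPM in naive lines 33, 38 and 6 and 12.8, 16 and 13.3 CPM in everolimus lines 12, 26 and 4, which all lay above naive (all genes 16.9%), a change of 0.81 ± 0.24 that passed the threshold in 6 of 19 fits. The CX-5461 lines 14, 39 and 20 held 10.7, 8.32 and 15.3 CPM and the combination lines 8, 9 and 31 held 10.4, 13.6 and 14.1 CPM, both overlapping naive. Input Neat1 was 10.9, 8.73 and 8.66 CPM in CX-5461 lines 14, 39 and 20, below naive lines 33, 38 and 6 at 12.2, 15.1 and 18.6 CPM (all genes 12.6%). The change was −0.71 ± 0.23 and did not pass. In polysomal RNA, CX-5461 lines 14 and 39 held the highest Neat1, 33.5 and 30.2 CPM, and the highest Malat1, 212 and 240.2 CPM, while line 20 held the lowest, 8.37 and 115 CPM. Malat1 input ranged from 123 to 241 CPM over the 12 lines.

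Across the 24 acute mice, with treatment means removed, the members fell into 2 sets in input RNA that moved in opposite directions. Neat1 and Malat1 went together (r = 0.958, rho = 0.91, permutation p = 1e-05 and 1e-05, adjusted 0.00014 and 0.00021), and so did Malat1 and Mir17hg (r = 0.827, rho = 0.827, permutation p = 2e-05 and 3e-05, adjusted 0.00014 and 0.00021). Among the short RNAs, Rpph1 correlated with Rn7sk (r = 0.798, rho = 0.736, permutation p = 9e-05 and 0.00018, adjusted 0.00027 and 0.00054) and with Terc (r = 0.805, rho = 0.71, permutation p = 4e-05 and 0.00043, adjusted 0.000168 and 0.000821). Between the sets the sign was negative, as for Rpph1 and Neat1 (r = −0.783, rho = −0.793, permutation p = 7e-05 and 4e-05, adjusted 0.000245 and 0.00021) and for Rn7sk and Malat1 (r = −0.718, rho = −0.748, permutation p = 0.0003 and 0.00026, adjusted 0.00063 and 0.000607). Rmrp took part less: with Rn7sk it gave r = 0.422, rho = 0.272, permutation p = 0.0546 and 0.216, adjusted 0.0675 and 0.239, and r was 0.15 without the mice farthest from the median. For the other pairs named, r without the 2 mice farthest from the median of the first RNA was 0.953, 0.834, 0.699, 0.713, −0.818 and −0.69, in the order given. P-values came from 100000 permutations within treatment, for which 1e-05 is the smallest possible value, adjusted over the 21 pairs of a fraction. The levels share a library and a scaling, so they are not independent of each other.

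In polysomal RNA of the same mice all 21 correlations were positive, with r from 0.416 to 0.908. Rpph1 and Rmrp, the RNAs of the related ribonucleases, were closest (r = 0.908, rho = 0.857, permutation p = 1e-05 and 1e-05, adjusted 5.25e-05 and 7e-05; 0.863 without the 2 mice farthest from the median). Rn7sk and Malat1, negative in input, were positive here (r = 0.611, rho = 0.702, permutation p = 0.00546 and 0.00054, adjusted 0.00764 and 0.00142; 0.638 without those mice). The input level of a mouse went with its polysomal level for Mir17hg (r = 0.934, rho = 0.925, permutation p = 1e-05 and 1e-05, adjusted 7e-05 and 7e-05; 0.923), Neat1 (r = 0.859, rho = 0.868, permutation p = 2e-05 and 2e-05, adjusted 7e-05 and 7e-05; 0.837) and Malat1 (r = 0.741, rho = 0.74, permutation p = 0.00013 and 0.00025, adjusted 0.000303 and 0.000583; 0.676). For the short RNAs no relation passed the threshold, with r of −0.255 for Rn7sk, −0.145 for Rpph1, 0.392 for Rmrp and 0.0373 for Terc (adjusted permutation p of 0.355, 0.642, 0.184 and 0.869 over 7 relations).

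**Figure D4:**
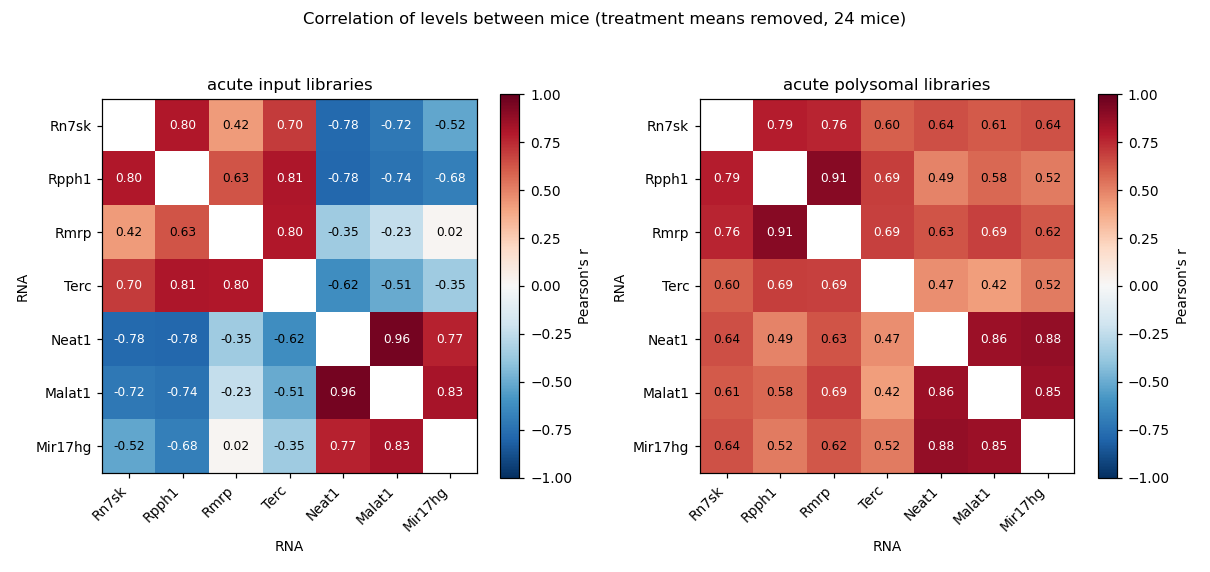
Pearson's r between the levels of each pair of RNAs across 24 acute mice with treatment means removed, for input (left) and polysomal libraries (right). Input shows a positive block of short RNAs, a positive block of long RNAs and mostly negative values between them, while all polysomal values are positive.

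The long RNAs also moved with the share of reads that the authors' counting placed on no gene. In acute input this share was 6.07 to 19.7%, with medians of 10.4% in vehicle, 10.6% after CX-5461, 13% after everolimus and 13.8% after both drugs. With treatment means removed, its correlation over 24 mice was r = 0.952, rho = 0.916, permutation p = 1e-05 and 1e-05, adjusted 2.33e-05 and 2.33e-05 for Neat1, r = 0.945, rho = 0.91, permutation p = 1e-05 and 1e-05, adjusted 2.33e-05 and 2.33e-05 for Malat1 and r = 0.867, rho = 0.835, permutation p = 1e-05 and 1e-05, adjusted 2.33e-05 and 2.33e-05 for Mir17hg. The short RNAs ran the other way, with r = −0.772, rho = −0.803, permutation p = 0.00017 and 6e-05, adjusted 0.000297 and 0.000105 for Rpph1 and r = −0.659, rho = −0.676, permutation p = 0.00106 and 0.00076, adjusted 0.00148 and 0.00106 for Rn7sk. Without the 2 mice farthest from the median these 5 values of r were 0.937, 0.934, 0.834, −0.81 and −0.694. Terc and Rmrp gave r = −0.542 and −0.263 (adjusted permutation p = 0.00965 and 0.274). In polysomal RNA the relation was r = 0.593, rho = 0.709, permutation p = 1e-05 and 3e-05, adjusted 7e-05 and 0.000105 for Malat1 and rose to r = 0.911 with the 4 Lars2- and Yam1-rich libraries left out. The no-gene share of polysomal RNA had a median of 13.8% in vehicle mice and 12.6% after both drugs. In the 3 vehicle libraries rich in Lars2 and Yam1 it was 18.6, 23.3 and 26%, and in the other 3 it was 5.79, 6.63 and 9.02%, below all 6 combination libraries (9.12 to 17%). The part of this share in the treatment changes was not tested.

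**Figure D5:**
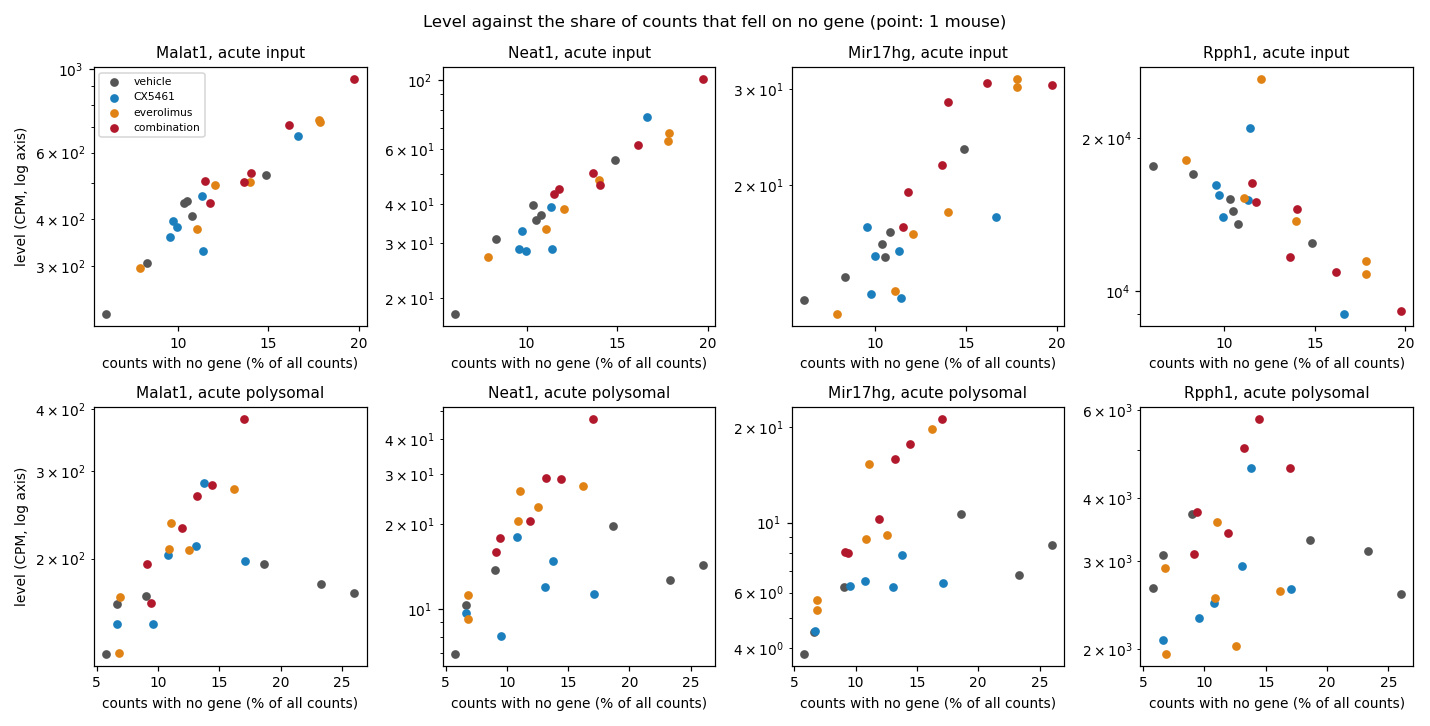
Level (CPM, log axis) of Malat1, Neat1, Mir17hg and Rpph1 against the share of counts on no gene (%) in each acute mouse, for input (top) and polysomal libraries (bottom), coloured by treatment. In input the long RNAs rise with the share in every treatment, and Rpph1 falls.

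Among the 9689 genes whose mean in acute input was 2 log2 CPM or more, the genes most like each member over 24 libraries were named by Pearson's r, as a description that includes treatment differences. For Neat1 they were Malat1 (0.967), Cflar (0.936) and Kcnq1ot1 (0.933), for Malat1 Neat1 (0.967), Cspp1 (0.96) and Kcnq1ot1 (0.953) and for Mir17hg Cspp1 (0.908), Ankrd16 (0.9) and Zc3h7a (0.897). For Rn7sk they were Lrwd1 (0.898), Sharpin (0.898) and Tk1 (0.893), for Rpph1 Rbck1 (0.921) and Tcirg1 (0.92), for Terc Spata5l1 (0.932), Mocs3 (0.901) and Pias4 (0.888) and for Rmrp Adcy3 (0.81), Snora78 (0.808) and Zfp865 (0.798). In polysomal RNA, among 9897 genes, they were Rmrp (0.932), Snora78 (0.931) and Rn7sk (0.854) for Rpph1, Rpph1 (0.932), Snora78 (0.931) and Rn7sk (0.868) for Rmrp and Fam160a2 (0.922), Snora78 (0.913) and Cbx7 (0.886) for Rn7sk, so that Snora78, a small nucleolar RNA, was near all 3. For Terc they were Pabpn1 (0.807), Irf2bp2 (0.807) and Safb2 (0.765). For Mir17hg they were Ccnt2 (0.958), Dleu2 (0.936) and Kcnq1ot1 (0.935), for Neat1 Sptbn1 (0.956), Akap9 (0.952) and Vps13b (0.949) and for Malat1 Zfp329 (0.929), Vps13a (0.906) and Ccnt2 (0.903). Kcnq1ot1, itself a nuclear RNA, was thus among the 3 nearest genes of both Neat1 and Malat1 in input.

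The genes that make, bind or process these RNAs were tested as 11 lists. By edgeR, CX-5461 or everolimus alone changed 0 of 166 listed genes in acute input and 0 of 153 in acute polysomal RNA. At an unadjusted p under 0.05 there were 7 and 19 in input (4.22% and 11.4%, all genes 9.72% and 14.4%) and 11 and 17 in polysomal RNA (7.19% and 11.1%, all genes 16.1% and 10.9%), and DESeq2 called 0, 0, 0 and 1. For the combination 7 of 166 and 7 of 153 listed genes were called, where 7.48% and 7.42% of all genes were. Under both drugs, P-TEFb, the kinase held by 7SK, had 1 of 7 genes of its list higher in input and in polysomal RNA. This was Ccnt2, a cyclin of the kinase, which in input went from lowest 26.3, median 36.8, highest 43.7 CPM in vehicle mice to lowest 45.1, median 52.0, highest 73.2 CPM after both drugs (0.65 ± 0.17, adjusted p = 0.0265). In polysomal RNA its change was 0.62 ± 0.18, adjusted p = 0.0371. Of 9 microRNA processing genes, 1 rose in input, Ago4 (0.54 ± 0.09, adjusted p = 0.0018), and 4 in polysomal RNA, among them Ago4 (0.46 ± 0.11, adjusted p = 0.0227) and Dicer1 (0.40 ± 0.11, adjusted p = 0.0323), which cuts hairpins into mature microRNAs. Of 4 microRNA host RNAs 2 rose in input, Dleu2, the host of miR-15a and miR-16-1 (0.84 ± 0.26, adjusted p = 0.04996), and Mir22hg (0.81 ± 0.23, adjusted p = 0.0356).

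Of 8 other nuclear long noncoding RNAs tested, 1 rose in each fraction, Tug1 in input (0.36 ± 0.11, adjusted p = 0.0447) and Jpx, an activator of Xist, in polysomal RNA (0.95 ± 0.28, adjusted p = 0.0394). All 8 estimates were above 0 in both fractions, with medians of 0.48 and 0.75 against 0.00 over all genes. Of 38 small nucleolar RNAs in polysomal RNA 1 rose, Snora78 (0.74 ± 0.19, adjusted p = 0.024), and 33 estimates were above 0 with a median of 0.42. In input 1 of 28 genes of the polymerase III machinery rose, Gtf3c2 of the factor TFIIIC (0.27 ± 0.08, adjusted p = 0.0455), and 1 of 11 paraspeckle proteins fell, Rbm14 (−0.32 ± 0.10, adjusted p = 0.0477). The lists of RNase P and MRP proteins, telomerase, nuclear speckle proteins and other small RNAs had no gene called. Of these calls Snora78 held in 9 of 9 alternative fits, Ccnt2 in input in 8 of 9, Dleu2 in 4 of 9, Tug1 in 4 of 9 and Rbm14 in 3 of 9.

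In the relapse lines, Tert, the catalytic protein of telomerase, rose in input in all 3 drug groups. It was at 0.367, 0.647 and 0.923 CPM in naive lines (7 to 14 counts) and 4.66, 4.67 and 4.99 CPM in CX-5461 lines (2.89 ± 0.36, adjusted p = 0.00128). Everolimus lines held 1.72, 1.83 and 3.26 CPM (1.85 ± 0.37, adjusted p = 0.0165) and combination lines 3.67, 4.66 and 5.49 CPM (2.85 ± 0.36, adjusted p = 0.00139). No relapse line overlapped a naive line, a pattern that 6.31% of all genes showed. In polysomal RNA Tert rose for CX-5461 (2.71 ± 0.56, adjusted p = 0.0142) and the combination (2.30 ± 0.56, adjusted p = 0.0301). The input calls held in 18 of 18, 16 of 18 and 18 of 18 alternative fits. Of the 9 genes of the telomerase list 1, 2 and 1 rose in input for the 3 groups (all genes 8.37%, 11.7% and 13.5% called in either direction). The other was Wrap53 for everolimus (0.61 ± 0.14, adjusted p = 0.0246), which carries the RNA to Cajal bodies.

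Of 28 polymerase III machinery genes, 3 rose and 1 fell in CX-5461 input, 1 rose and 3 fell in everolimus input, and 3 rose and 2 fell in combination input, where 8.37%, 11.7% and 13.5% of all genes were called. Ssb (La), which binds the ends of new polymerase III transcripts, fell in all 3, from 84.8, 106 and 108 CPM in naive lines to 52.2, 57.3 and 61.8, 35.3, 43.6 and 50.4, and 35.8, 36.1 and 68.9 CPM. Its changes were −0.81 ± 0.23, adjusted p = 0.0477, then −1.19 ± 0.23, adjusted p = 0.0158, and −1.09 ± 0.23, adjusted p = 0.0108. Gtf3a, a transcription factor of the polymerase, rose for CX-5461 (0.87 ± 0.22, adjusted p = 0.0309) and the combination (0.74 ± 0.22, adjusted p = 0.0434). Mepce, which caps 7SK, rose for CX-5461 (1.02 ± 0.21, adjusted p = 0.0133) and the combination (0.70 ± 0.21, adjusted p = 0.0457), and its levels were 94.5, 98.0 and 111 CPM in naive and 136, 235 and 248 CPM in CX-5461 lines. Polr3gl, a subunit of the polymerase, rose in combination lines (0.99 ± 0.15, adjusted p = 0.00245). The calls of Ssb held in 9 of 18, 16 of 18 and 17 of 18 alternative fits, and those of Gtf3a and Mepce in combination lines in 8 of 18 and 7 of 18.

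Of 11 RNase P and MRP proteins, Pop7 (1.08 ± 0.27, adjusted p = 0.0307) and Pop1 (0.55 ± 0.16, adjusted p = 0.0493) rose in CX-5461 input. Pop4 fell in everolimus (−0.65 ± 0.16, adjusted p = 0.0282) and combination input (−0.57 ± 0.16, adjusted p = 0.0368), where Rpp25 (2.30 ± 0.70, adjusted p = 0.0489) and Pop5 (0.58 ± 0.16, adjusted p = 0.0334) rose. Rpp25 had only 3 to 6 counts in naive lines and 8, 11 and 42 counts in combination lines. Mir142hg, another microRNA host RNA, rose in all 3 groups, from 1.45, 2.20 and 3.29 CPM in naive lines to 7.2, 10.1 and 10.6 CPM in combination lines (2.00 ± 0.31, adjusted p = 0.003), with 1.35 ± 0.31, adjusted p = 0.0214 for CX-5461 and 1.77 ± 0.31, adjusted p = 0.0115 for everolimus. Pvt1, a long RNA beside Myc, rose for everolimus (1.14 ± 0.24, adjusted p = 0.0193) and the combination (1.06 ± 0.24, adjusted p = 0.0149). The paraspeckle proteins Nono (−0.82 ± 0.14, adjusted p = 0.0115) and Sfpq (−0.62 ± 0.17, adjusted p = 0.0389), which bind Neat1, and the speckle protein Srsf1 (−0.49 ± 0.14, adjusted p = 0.0389) fell in everolimus input. Of 40 small nucleolar RNAs, 3, 4 and 5 rose in the 3 groups and 0 fell (all genes 8.37%, 11.7% and 13.5% called in either direction), shares of the list below those of all genes, with 26, 38 and 34 estimates above 0. Leading them was Snora33 for CX-5461 (1.12 ± 0.26, adjusted p = 0.023) and everolimus (1.72 ± 0.26, adjusted p = 0.00859). Calls that held in at most 9 of 18 alternative fits were those of Pop1 (4 of 18), Pop4 in combination lines (8 of 18), Rpp25 (5 of 17), Sfpq (9 of 18) and Srsf1 (6 of 18).

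In relapse polysomal RNA the calls for CX-5461 rested in part on lines 14 and 39. Of 35 small nucleolar RNAs 13 rose (all genes 19.5% called in either direction), but Scarna10 had 0.31, 171 and 241 CPM in the CX-5461 lines, of which line 20 was the lowest, against at most 0.71 CPM in every other line. Gtf3c2 was likewise at 14.6, 116 and 118 CPM (2.40 ± 0.60, adjusted p = 0.0243), with line 20 at the level of naive lines (14.5, 17.0 and 17.5 CPM). These are the lines that also held the highest polysomal Terc and Rmrp. Without lines 14 and 39 the change was −0.45 for Scarna10 and −0.21 for Gtf3c2. For the combination, 6 of 18 other small RNAs rose (all genes 10%), among them Rnu3b2 (1.43 ± 0.40, adjusted p = 0.0499), 1 of near-identical copies of U3 whose reads cannot be told apart with certainty, and Vaultrc5 (2.49 ± 0.60, adjusted p = 0.0289), with 3 to 6 counts in naive lines. Airn, an imprinted long RNA, had 0, 0 and 1 counts in naive and 8 to 43 counts in the 9 drug-relapse lines, and it was called for all 3 groups, for everolimus in 8 of 18 alternative fits. By edgeR, 0 of 171 listed genes were called for a difference between fractions in acute and 0 of 158 in relapse libraries. At an unadjusted p under 0.05 there were 2, 13 and 23 genes in acute (all genes 4.85%, 6.54% and 13.1%) and 45, 16 and 15 in relapse libraries (all genes 20.8%, 10.5% and 3.7%), for CX-5461, everolimus and the combination.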

How the data were processed

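Per the submitters' processing notes, reads were aligned with TopHat2 to the mouse genome GRCm38 and counted per gene with HTSeq. The deposited tables hold the authors' raw counts per gene, 1 table for each experiment and fraction. Versions, the gene annotation and the strand setting are not given in the sources used here. Libraries were ribosomal RNA-depleted and made from a fixed mass of RNA without a spike-in, per the labels' protocols, so levels are relative. Reads on no gene and ambiguous reads were left out of library sizes and tests, and the no-gene share was 5.79 to 26.0% in the acute tables. All columns of the tables were matched to a sample by name (0 unmapped).

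Each drug group was compared with vehicle or naive in a fit over the 4 groups of a table with edgeR 4.0.16 (TMM scaling, filterByExpr, quasi-likelihood test, prior count of 2 for log levels), with Benjamini-Hochberg adjustment over all genes tested and a threshold of 0.05. The difference between fractions was fitted on both libraries of a mouse or line, which was a block. The labels number the relapse lines without saying that each came from a separate mouse, so p-values there measure only the spread between these lines. Positions and lengths came from GENCODE M21 (GRCm38). Python 3.11.15, R 4.3.3 and DESeq2 1.42.0 were used.

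The members and the gene lists were chosen with earlier results of these data known. Genes named beside the members were up to 2 per direction, list and comparison with the largest change past the threshold, the 3 genes most like each member by correlation, and genes over 5% of a library. For Rpph1 in acute input, 1 of these 3 genes is not reported here. The alternatives were other scalings, no count filter, DESeq2, other groupings of libraries in the fit, libraries left out, and, chosen after seeing the data, the run of columns as a term. The fits were tested on simulated data with known changes added at random to real genes of higher mean count, and with no other difference between groups. The shares below therefore do not cover low-count members, such as Terc in acute polysomal RNA (59 to 228 counts). For the combination, the share of genes changed 1.5-fold that was called was 91.0% of 67 in acute input, 82.1% in acute polysomal RNA, 4.48% in relapse input and 11.9% in relapse polysomal RNA. For 4-fold changes of 66 genes these shares were 100%, 98.5%, 98.5% and 95.5%, and for the difference between fractions 100% in acute and 65.2% in relapse libraries. For smaller changes in the difference between fractions, the share called was 61.2% at 1.5-fold and 95.5% at 2-fold in acute libraries. In relapse libraries it was 0% at 1.5-fold and 8.96% at 2-fold, so most changes of that size would be missed there. Replicate numbers did not pair acute mice, as given with the sensitivity of the results.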

Additional observations from a re-analysis of the deposited data

Results flagged for a closer look

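In 3 of 84 groups of 6 acute mice, 1 mouse stood apart from the others in log2 CPM, where chance gives about 1 in 20. Rn7sk of combination input was lowest in mouse 6, at 13.7, with the other mice at 14.1 to 14.2. Neat1 of CX-5461 input was highest in mouse 3, at 6.25, with the other mice at 4.84 to 5.29. Rn7sk of everolimus polysomal RNA was lowest in mouse 2, at 10.3, with the other mice at 10.9 to 11.2. Everolimus mouse 2 is also 1 of the input libraries rich in Gm26870 and Gm10800.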

How the results depend on the processing

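The number of members past the threshold moved with the fit in 11 of 18 comparisons, and the cause was not tested. In acute input of the combination it was 0, but 1 with DESeq2, and 3 once vehicle mouse 6 and combination mouse 3 were left out. In acute polysomal RNA of the combination it was 4, but 1 with the replicate block and 2 without libraries rich in Lars2 and Yam1. In relapse input of CX-5461 it was 1 (Rn7sk), but 0 with plain library totals or with the compared groups alone, 2 with no count filter or DESeq2, 3 with the run of columns as a term, and 0 to 1 leaving out 1 line. For everolimus input it was 2, but 1 with RLE factors, 0 with plain totals or the compared groups alone, 4 with no count filter, 5 with the run term, and 0 to 2 leaving out 1 line. For combination input it was 1, but 3 with no count filter and 5 with the run term. In relapse polysomal RNA of CX-5461 it was 1, but 3 with DESeq2, 0 with the compared groups alone or without lines 14 and 39, and 0 to 6 leaving out 1 line. For everolimus it was 0, but 2 with the run term. For the combination it was 1, but 2 with the compared groups alone or without lines 14 and 39, 4 with the run term, and 1 to 2 leaving out 1 line. For the acute difference of the combination it was 0, but 4 with no count filter and 1 without vehicle mouse 6 and combination mouse 3. For the relapse difference of CX-5461 it was 0, but 2 with no count filter and 0 to 3 leaving out 1 line, and for everolimus 3 with the run term. Among the polysomal less input means, Neat1 was −1.30 in acute vehicle mice with plain totals, against −1.46, and Rn7sk −4.38 in naive lines, against −4.87. In naive lines Malat1 was 0.36 and Mir17hg −0.082 with plain totals, and Neat1 ranged from −0.069 to 0.697 leaving out 1 line, against −0.12, −0.56 and 0.31. Plain totals shifted the median of all genes by −0.21 to 0.20 log2 over the comparisons. The count of all genes called ranged over the alternatives from 70 to 3590 around 1201 in acute input and from 706 to 3310 around 1140 in acute polysomal RNA of the combination, and for relapse polysomal CX-5461 from 441 to 8970 around 2882. In the other acute comparisons of a level it ranged from 1 to 148 around 64 and from 2 to 126 around 17 in input, and from 1 to 351 around 135 and from 4 to 131 around 23 in polysomal RNA, for CX-5461 and everolimus. In relapse input it ranged from 365 to 2345 around 1211, from 90 to 4399 around 1694 and from 766 to 3666 around 1956, and in relapse polysomal RNA from 0 to 538 around 17 for everolimus and from 460 to 3933 around 1480 for the combination. For differences it was 0 in each, and up to 118, 78 and 322 in acute and 4730, 2808 and 145 in relapse libraries. Replicate numbers of acute mice gave a mean correlation of deviations of 0.0111 in input and −0.0266 in polysomal RNA, and 2 and 3 of 24 libraries correlated best with their own number, so the replicate block rests on numbers alone. Of 81 calls of named list genes, 13 held in every alternative fit and 59 in more of them than not. In polysomal CX-5461 lines the change turned from higher to lower for Gtf3c2 (−0.21 without lines 14 and 39 and −0.21 with the run term), Rnu2-10 (−0.25 and −0.24), Scarna10 (−0.45 and −0.19) and, with the run term, Pop7 (−0.038). Both of these fits rest on CX-5461 line 20 alone. Among the members the lowest count was 10, for Terc in relapse polysomal RNA of naive line 33 and everolimus line 4.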
